A study of Mus musculus with 5 samples.

Results

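Among cells dissociated from MC38 tumors, a small set of myeloid barcodes carried Arg1 mRNA with little or no C1q mRNA, and these Arg1+ C1q-low barcodes are described here. A member had at least 5 Arg1 UMIs per 10000 (UMIs are unique molecular identifiers, each marking 1 captured RNA or tag molecule), at least 3 Tyrobp UMIs, at least 1 UMI of Csf1r or Ccr2, and fewer than 20 UMIs per 10000 of C1qa, C1qb, and C1qc together. Only barcodes with at least 200 genes and under 10% mitochondrial UMIs were considered, with no upper limit on genes. The rule found 49 members among 33762 passing barcodes of reaction 1 and 52 among 23332 of reaction 2, in all 101 of 57094 passing tumor barcodes and of 191492 barcodes in the series. No barcode of the 3 reactions from tumor-draining lymph nodes (TDLNs), which the paper describes for mice with TRAMP-C2 tumors, met the rule. Myeloid barcodes with C1q at or above the limit were also at 0 there, so this absence is not particular to the Arg1+ C1q-low barcodes. The measured values of Arg1, Tyrobp, Csf1r, Ccr2, and C1q decided membership, and because they were chosen by those values, their expression beside other barcodes is given as a description without a test.

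The mice were male WT C57BL/6J with s.c. MC38 tumors, a transplantable mouse colon adenocarcinoma line. Day 3, day 6, and day 9 brought either isotype antibodies or checkpoint inhibition (CPI) with antibodies to CTLA4 and PD-1. Vehicle (DPBS) or the JAK1 inhibitor ABT-317 at 20 mg/kg followed on day 12, and tumors were taken on day 15. Days are counted from implantation in the sequencing methods, while the MC38 study plan counts treatment days from enrolment at a set tumor size, and which applies here was not settled. The 4 groups were therefore isotype, CPI, isotype + ABT-317, and CPI + ABT-317. Live CD45+ and CD45- cells were sorted, tagged with hashtag antibodies, mixed in equal parts, and run in 2 droplet reactions with 5′ chemistry and a surface antibody panel, so CD45+ cells were enriched by the sort and shares of barcodes are not shares of the tumor. A hashtag marked 1 treatment in 1 reaction and no single mouse. Nothing in the labels says that the pools of the 2 reactions came from separate animals, so p-values measure only the spread between pools, which may be technical.

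Arginase 1, encoded by Arg1, splits arginine into ornithine and urea, and myeloid cells that express it deplete arginine that T cells need. In tumors it marks monocyte-derived cells and macrophages of hypoxic or wound-like regions, often together with osteopontin (Spp1), and it is also induced by IL-4 and IL-13. The C1q genes encode the subunits of the first complement component and mark mature, resident-like macrophages. Csf1r and Ccr2 are the receptors that govern macrophage survival and monocyte recruitment, and Tyrobp is a signaling adaptor shared by myeloid and NK cells.

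Members were given a treatment through the hashtag oligonucleotides, whose barcodes follow 10 random bases and decide every treatment comparison given here. The 8 barcodes of 15 bases, all in capitals because the whole run is the part that is read, were in 5′ to 3′ direction:
Isotype, reaction 1, TSCam310: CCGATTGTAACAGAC
Isotype, reaction 2, TSCam301: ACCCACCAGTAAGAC
CPI, reaction 1, TSCam302: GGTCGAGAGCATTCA
CPI, reaction 2, TSCam306: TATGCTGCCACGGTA
Isotype + ABT-317, reaction 1, TSCam309: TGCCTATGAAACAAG
Isotype + ABT-317, reaction 2, TSCam308: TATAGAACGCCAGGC
CPI + ABT-317, reaction 1, TSCam303: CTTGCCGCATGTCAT
CPI + ABT-317, reaction 2, TSCam307: GAGTCTGCCAGTATC
Any pair among them differed at 7 to 14 of the 15 positions, over 28 pairs, and a treatment had a different hashtag in each reaction. Surface proteins were read the same way, and the tags of 4 of the antibodies named in this report were:
I-A/I-E (MHC class II): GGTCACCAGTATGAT
CD9: TAGCAGTCACTCCTA
CD274 (PD-L1): TCGATTCCACCAACT
Siglec-H: CCGCACCTACATTAG

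The 2 tumor reactions held 435031691 and 377184807 gene UMIs over 37774 and 27582 barcodes, and no doublet caller was run. They shared 1416 barcode sequences (5.13% of reaction 2), and no member sequence was a member in both, although 4 member sequences of reaction 1 were found in reaction 2 and 1 of reaction 2 in reaction 1. Members made up 0.145% of passing barcodes in reaction 1 (95% exact Clopper-Pearson interval 0.107 to 0.192%) and 0.223% in reaction 2 (0.166 to 0.292%). These intervals and all others given here cover counting error only. Beside them stood 5698 and 5712 C1q-high barcodes, which met the same myeloid rule with at least 20 C1q UMIs per 10000 (16.9 and 24.5% of passing barcodes), 1540 and 849 Arg1-low C1q-low barcodes, and 26475 and 16719 other barcodes. Most of the myeloid space was thus C1q-high, and the members were its small Arg1-rich, C1q-poor corner.

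**Figure D1:**
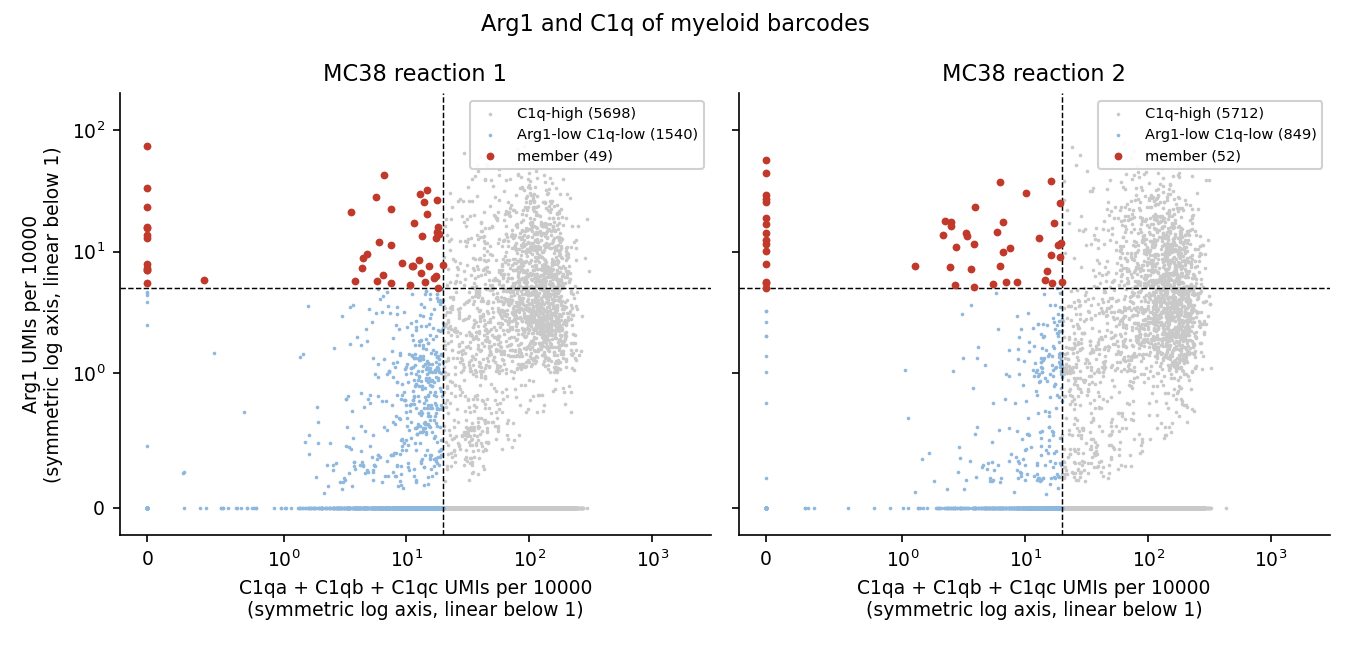
UMIs per 10000 of Arg1 against the sum of C1qa, C1qb, and C1qc for each myeloid barcode of MC38 reactions 1 and 2, on symmetric log axes that are linear below 1, with the 2 limits of the rule as dashed lines. The 49 and 52 members lie above 5 Arg1 UMIs and left of 20 C1q UMIs per 10000, and C1q-high barcodes extend to the same Arg1 levels.

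Arg1 in members rested on few molecules. The median was 6 Arg1 UMIs per member in reaction 1 (1 to 31) and 5.5 in reaction 2 (1 to 40), which is 9.49 and 11.6 per 10000 (highest 73.9 and 56.2), and 11 and 9 members had only 1 or 2. Near the Arg1 limit, 8 and 11 members had 5 to 6 UMIs per 10000 (lowest 5.04 and 5.02), and 19 and 5 barcodes just outside had 4 to 5 (highest 4.97 and 4.98). Near the C1q limit, 10 and 11 members had 15 to 20 UMIs per 10000 (highest 19.6 and 19.8) and 16 and 7 barcodes outside had 20 to 25 (lowest 20.2 and 20.6). C1q mRNA was at 0 in 12 and 15 members, and its median was 7.51 and 3.71 per 10000 against 98.7 and 131 in C1q-high barcodes. Csf1r was found in 45 and 48 members, Ccr2 in 11 and 16, and both in 7 and 12, so the receptor that admitted most members was Csf1r. Spp1, the remaining marker given for these cells and not part of the rule, was found in 71 of 101.

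The level of Arg1 summed over members was 1047 and 1197 CPM (UMI counts scaled to the same total in each class) in reactions 1 and 2, against 181 and 177 in C1q-high, 26.6 and 22.4 in Arg1-low C1q-low, and 12.9 and 10.8 in other barcodes. T cells, which lack Arg1 and C1q, served as a background. An Arg1 UMI was seen in 4.49% of 423 T cell barcodes of reaction 1 (2.73 to 6.93%; median depth 2108 UMIs) and in 2.62% of 381 of reaction 2 (1.27 to 4.77%; median depth 1440). The limit of 5 Arg1 UMIs per 10000 was reached by 7 of 423 and 6 of 381 T cell barcodes (1.65 and 1.57%). Of other barcodes, 526 of 26475 and 381 of 16719 reached it (1.99 and 2.28%). Among myeloid barcodes under the C1q limit, 49 of 1589 and 52 of 901 reached it. What part of the members would reach the limit at a background rate of Arg1 was not tested. A C1q UMI was seen in 65.2 and 48.6% of the same T cell barcodes, so single C1q molecules in a member do not show expression. Arg1 was not exclusive to the C1q-poor barcodes, since 736 and 750 C1q-high barcodes (12.9 and 13.1%) also reached 5 Arg1 UMIs per 10000.

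Members differed widely in depth, and the deep ones mostly carried several hashtags. Their median depth was 3640 and 3642 UMIs, close to 4601 and 5354.5 in C1q-high barcodes and well under 16703.5 and 23925 in Arg1-low C1q-low and 10190 and 15380 in other barcodes. Members with under 2500 genes, the upper limit the study set, numbered 35 and 42. The other 14 and 10 held 70.8 and 51.2% of all member UMIs. More than 1 hashtag was present in 71.4 and 60% of these deep members and in 14.3 and 28.6% of the shallow ones. Tyrobp had a median of 4.71 and 5.86 UMIs per 10000 in deep and 30.6 and 29.0 in shallow members. Values with under 2500 genes per barcode are given for some of the genes and lists that they move.

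Markers of other cell types were scarce in members, apart from fibroblast genes. B cell genes (4) and keratin and other epithelial genes (5) were at 0 in both reactions, as were Ly6g, Retnlg, and G0s2, which define neutrophils. The epithelial genes summed to only 0.352 and 0.341 CPM in other barcodes, and the B cell genes to 7.57 and 9.25 CPM in C1q-high barcodes. At such levels a 0 in the few members says little. The 9 neutrophil genes summed to 64.1 and 40.8 CPM against 78.3 and 75.3 in C1q-high barcodes. The 8 dendritic cell genes summed to 74.4 and 50.3 CPM against 55.6 and 59.2, with Flt3, Xcr1, Siglech, Cd209a, and Ccr7 at 0 in both reactions. The 9 T and NK cell genes summed to 7.70 and 69.1 CPM against 39.0 and 43.5, and 1 member carried 68.2% of those in reaction 2. Red cell genes gave 2.57 and 0 CPM, mast cell and basophil genes 2.57 and 6.28, and endothelial genes 12.8 and 3.14. The 6 fibroblast genes, which encode collagens and other matrix proteins, summed to 1311 and 4210 CPM in members against 2676 and 2276 in C1q-high barcodes, and to 421 and 180 CPM in members with under 2500 genes. At least 1 UMI of the T cell, fibroblast, or tumor markers was found in 55.1 and 42.3% of members and in 58.3 and 45.0% of C1q-high barcodes. The part of such transcripts in the results was not tested.

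Beside C1q-high macrophages, the members held more F10, Cxcl3, Slpi, Nos2, Mmp12, and Slc7a11 mRNA, and their mature macrophage and MHC class II lists were lower. Of 2832 genes with at least 50 CPM in 1 of the 2 classes in both reactions, 30 (1.06%) were at least 2-fold higher in members in both reactions and 50 (1.77%) at least 2-fold lower. The 15 highest and 15 lowest genes by the reaction nearest to no difference are given first, with the mean log2 ratio ± SD over the 2 reactions.

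F10, which encodes coagulation factor X, stood at 66.7 and 72.3 CPM in members of reactions 1 and 2 and at 5.66 and 4.801 in C1q-high barcodes, a log2 ratio of 3.74 ± 0.25. It was found in 28 members, and it was higher than in C1q-high barcodes in 7 of the 8 treatment pools. Another coagulation gene, F13a1 (the A subunit of factor XIII, typical of monocytes), stood at 89.8 and 220 CPM against 32.3 and 30.7 (2.16 ± 0.97), and it was found in 46 members. Thbs1, encoding thrombospondin 1, stood at 277 and 528 CPM against 97.6 and 100 (1.95 ± 0.63) and was found in 56 members. F10 was in 28.6 and 26.9% of members and 2.21 and 2.45% of C1q-high barcodes, and in 0 of 423 and 0 of 381 T cell barcodes, whose exact upper limits were 0.868 and 0.964%.

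Cxcl3, a ligand of CXCR2 that draws neutrophils, stood at 228 and 163 CPM in members against 19.6 and 16.5 in C1q-high barcodes. It was found in 24.5 and 19.2% of members, 3.91 and 4.24% of C1q-high, and 0.473 and 0.525% of T cell barcodes. The related Cxcl2 stood at 6034 and 7342 against 3567 and 3687 CPM (0.88 ± 0.17), and Cxcl1 at 590 and 468 against 257 and 295 (0.93 ± 0.38). All 3 were higher in members in both reactions, while only Cxcl3 passed the 2-fold limit.

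Several enzymes and transporters that act on arginine, cystine, and heme were higher in members. Nos2, the inducible NO synthase that competes with arginase for arginine, stood at 144 and 75.4 CPM in members against 21.1 and 17.2 (2.45 ± 0.45). It was found in 34.7 and 25% of members, 8.83 and 8.11% of C1q-high, and 6.15 and 2.89% of T cell barcodes. Slc7a11, the cystine/glutamate exchanger, stood at 262 and 270 against 81.7 and 66.8 CPM (1.85 ± 0.24) and was found in 55.1 and 57.7% of members, 28.3 and 27.4% of C1q-high barcodes, and 10.9 and 6.04% of T cell barcodes. With each barcode thinned to 2000 UMIs, the Slc7a11 shares were 36.4 and 41.3% of the 44 and 46 members deep enough and 14 and 13.1% of 1000 C1q-high barcodes per reaction. Hmox1, heme oxygenase 1, stood at 452 and 691 against 210 and 266 CPM (1.24 ± 0.20). Ptgs2 (cyclooxygenase 2) stood at 405 and 308 against 172 and 164 CPM (1.08 ± 0.23). Odc1, ornithine decarboxylase, which uses the product of arginase, stood at 213 and 280 against 174 and 176 CPM (0.48 ± 0.27). Of the 11 measured genes of arginine and immunosuppressive enzymes, 3 were at least 2-fold higher in both reactions and 0 lower, 9 were higher in both, and the median log2 ratio was 0.56 against -0.02 over all genes. Acod1, which makes itaconate, was at 290 and 330 CPM against 316 and 341, and Entpd1 (CD39) was at 51.3 and 62.8 against 94.97 and 86.6.

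Matrix-degrading proteases made the next group. Mmp12, macrophage elastase, stood at 326 and 283 CPM against 63.2 and 59.9 (2.30 ± 0.09) and was found in 33 members and in 7 of 8 pools at a higher level. Mmp13, a collagenase, stood at 51.3 and 145 CPM against 17.6 and 13.8 (2.47 ± 1.301), with UMIs in 15 members and a higher level in 2 of the 8 pools. Slpi, an inhibitor of leukocyte proteases, stood at 275 and 173 against 45.8 and 12.96 CPM (3.16 ± 0.82, and 4.43 with under 2500 genes) and was found in 31 members. Spp1 stood at 942 and 2004 against 526 and 602 CPM (1.29 ± 0.63), higher in 7 of 8 pools. It was found in 71.4 and 69.2% of members, 54.7 and 55.6% of C1q-high, and 31.7 and 16.8% of T cell barcodes. Plaur, the receptor of urokinase, had a log2 ratio of 1.05 ± 0.11, whereas Plau, urokinase itself, stood at 103 and 110 CPM against 186 and 200 (-0.86 ± 0.00). Of 16 measured matrix genes, 14 were higher and 2 lower in both reactions, 4 by at least 2-fold, with a median of 0.63 (1.25 with under 2500 genes).

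Growth factors included Areg, the EGF receptor ligand amphiregulin, at 198 and 160 CPM against 39.1 and 35.9 (2.25 ± 0.12). Only 11 members held an Areg UMI and 3 of them held 58.6% of its UMIs, and Areg was higher in 2 of the 8 pools. Inhba, the activin A subunit, stood at 239 and 217 against 107 and 95.9 CPM (1.17 ± 0.01). Pstpip2, an adaptor of myeloid cells, stood at 69.3 and 59.7 against 23.7 and 20.1 CPM (1.56 ± 0.02), but it was higher in only 3 of the 8 pools, and as a median of pools the ratios of Pstpip2, Areg, and Mmp13 were -1.17, -6.51, and -2.62. Tnfaip2, a TNF-induced gene, stood at 187 and 236 against 74.9 and 62.1 (1.62 ± 0.43).

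Beside C1q-high barcodes, monocyte genes were high and mature macrophage genes low in members. Plac8 stood at 74.4 and 245 CPM against 29.6 and 28.8 (2.21 ± 1.24, and 3.73 with under 2500 genes), and it was higher in 5 of the 8 pools. Plac8 UMIs were found in 16.3 and 34.6% of members, 9.34 and 9.28% of C1q-high, and 18.2 and 22.3% of T cell barcodes. S100a4 stood at 1552 and 1109 against 667 and 588 (1.07 ± 0.21). The C-type lectins Clec4d and Clec4e had log2 ratios of 1.60 ± 0.75 and 1.08 ± 0.10. Ly6c2, which marks classical monocytes, was found in 6.12 and 17.3% of members, 3.63 and 4.13% of C1q-high barcodes, and 2.30 and 2.46% of other barcodes. T cells can express Ly6c2 themselves, and 38.3 and 38.9% of T cell barcodes held it, so they give no background for this gene. Of 15 measured monocyte genes, 12 were higher and 0 lower in both reactions, 6 by at least 2-fold, with a median of 1.07 (1.48 with under 2500 genes).

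Among mature macrophage genes, Cx3cr1, the fractalkine receptor, stood at 38.5 and 59.7 CPM in members against 217 and 178 in C1q-high barcodes (-2.04 ± 0.65). It was found in 18.4 and 23.1% of members and 66.6 and 64.8% of C1q-high barcodes, with 12.1 and 7.35% in T cell barcodes. Cd72, an inhibitory lectin receptor, stood at 28.2 and 56.6 CPM against 236 and 276 (-2.68 ± 0.55), and Ms4a7 at 136 and 308 against 629 and 697 (-1.70 ± 0.73). Mrc1 (CD206) was found in 8 members only, at 28.2 and 15.7 CPM against 66.5 and 57.8. Apoe stood at 1957 and 4684 against 6493 and 7228 CPM (-1.18 ± 0.78). Of 17 measured genes, 0 were higher and 14 lower in both reactions, with a median of -0.95. Cd163, Lyve1, and Timd4, which mark resident macrophages, were at 0 in members. They were not among the 17 measured genes, so a 0 in the few members says little.

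Chemokines were among the lowest genes. Ccl12, a CCR2 ligand, stood at 84.7 and 75.4 CPM in members and 585 and 633 in C1q-high barcodes (-2.93 ± 0.20). It was found in 24 members and was higher in none of the 8 pools. Ccl8 stood at 28.2 and 12.6 against 92.6 and 92.4 CPM (-2.30 ± 0.82), and Ccl4 at 1978 and 2381 against 4340 and 4924 (-1.09 ± 0.06). Il1b was found in 81 members at 1539 and 2133 CPM against 1010 and 1142 (0.75 ± 0.21). Ccl6 stood at 131 and 229 against 58.8 and 52.8 CPM. Of 20 measured cytokines and chemokines, 10 were higher and 9 lower in both reactions, so this list moved in both directions (median 0.20). Of the remaining genes lowest in members, 4 had 3 or fewer member UMIs in a reaction, and no ratio is given for them. Col14a1 had 1 and 3 member UMIs in the 2 reactions, Pou2f2 1 and 5, Cadm1 8 and 1, and Hpgds 2 and 5. The others were Tmem176b (-2.94 ± 0.79), Ckb (-2.33 ± 1.01), Otulinl (-1.97 ± 0.44), Fcrls (-1.90 ± 0.33), Zmynd15 (-1.80 ± 0.27), Ntpcr (-1.70 ± 0.05), and Frmd4b (-1.68 ± 0.01).

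**Figure D2:**
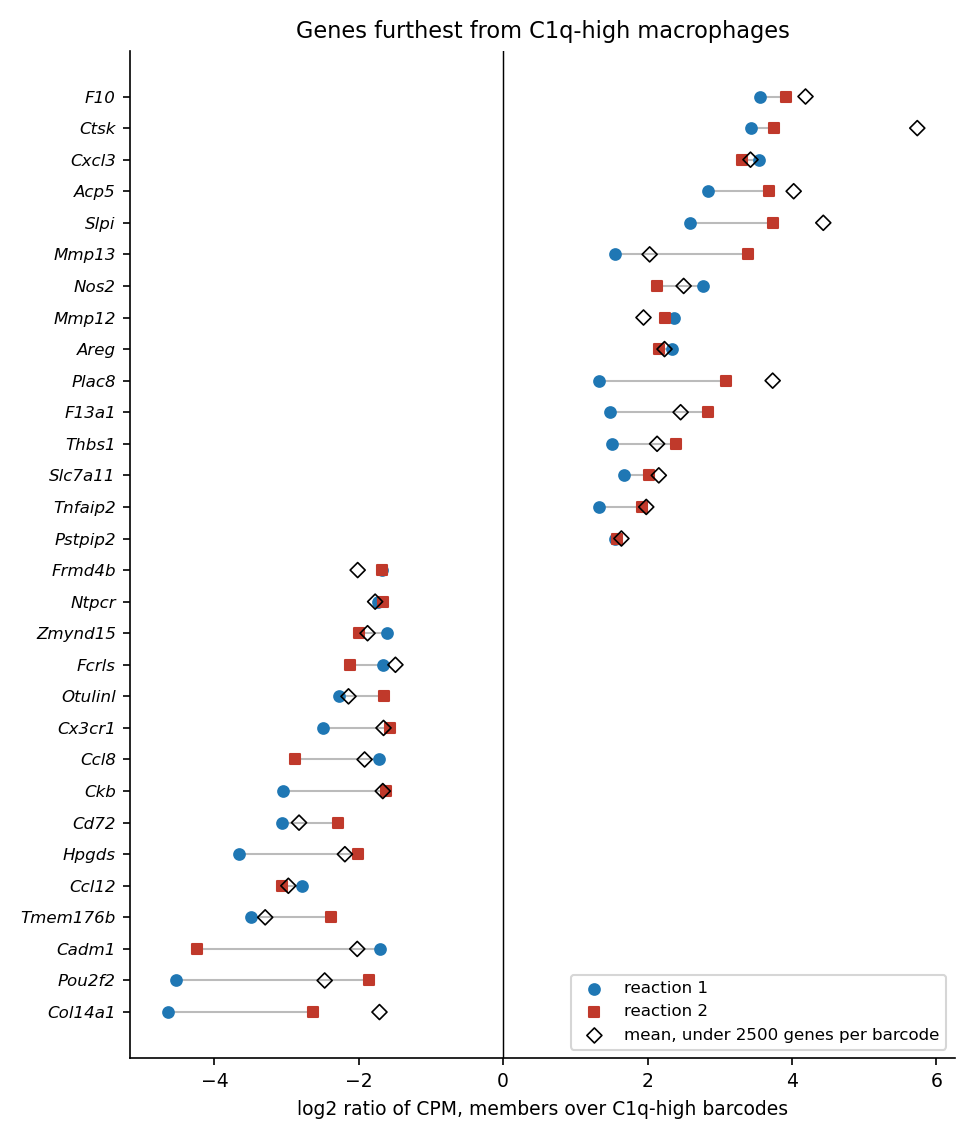
Log2 ratio of CPM in members over C1q-high barcodes for the 15 highest and 15 lowest genes, in reaction 1 (circles), reaction 2 (squares), and as the mean over both for barcodes with under 2500 genes (diamonds). All 15 upper genes lie right of 0 and all 15 lower genes left of it in both reactions, and Ctsk reaches 5.74 with under 2500 genes.

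MHC class II transcripts were lower in members than in C1q-high barcodes. H2-Aa stood at 618 and 751 CPM against 1392 and 1615 in C1q-high barcodes (-1.14 ± 0.05), H2-Eb1 at 559 and 578 against 1464 and 1670 (-1.46 ± 0.10), and Cd74, the invariant chain, at 2047 and 3073 against 4344 and 5509 (-0.96 ± 0.17). H2-Aa was found in 55.1 and 53.9% of members, 76.5 and 76.6% of C1q-high, and 24.1 and 15.2% of T cell barcodes. All 7 measured genes of the list were lower in both reactions (median -0.96), and H2-Aa, H2-Ab1, H2-Eb1, and Cd74 were higher in 0 of the 8 pools. MHC class I genes differed little, with 3 of 9 higher and 0 lower in both reactions and a median of 0.07. Among costimulatory genes, Cd83 (-1.18 ± 0.32) and Cd86 (-1.03 ± 0.25) were lower, and Cd274, encoding PD-L1, stood at 177 and 176 CPM against 148 and 135.

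Hypoxia and glycolysis genes were higher in members without exception but by small ratios. All 24 measured genes were higher in both reactions, with a median of 0.45, and 1 of them, Ero1a (an endoplasmic reticulum oxidase), by at least 2-fold, at 741 and 487 against 270 and 239 CPM. Ndrg1 had a log2 ratio of 1.17 ± 0.25, Hilpda 0.98 ± 0.35, Bnip3 0.90 ± 0.01, and Vegfa 0.81 ± 0.37, and Vegfa was found in 67 members.

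The other lists differed less. Of 15 measured lipid-associated macrophage genes, 10 were higher and 2 lower in both reactions (median 0.33), with Cd9 at 344 and 380 CPM against 210 and 227. IFN-γ–inducible genes had 3 higher and 5 lower of 11 (median -0.26), and type I IFN–stimulated genes 1 higher and 5 lower of 8 (median -0.28). Of 9 measured JAK-STAT genes, 3 were higher and 2 lower (median 0.08), and Jak1, which encodes the kinase that ABT-317 inhibits, stood at 131 and 123 CPM against 100.0 and 89.0. Cell cycle genes had 1 higher and 8 lower of 10 (median -0.49, and -1.42 with under 2500 genes), and Mki67 was found in 19 members. Of 19 immediate early and heat shock genes, which respond to dissociation, 3 were higher and 11 lower (median -0.21). Of 8 growth factor genes, 5 were higher and 1 lower (median 0.47). Of the alternative activation genes, 3 of 15 could be measured (2 higher, 1 lower), and Retnla, Chil4, Ccl17, Ccl22, Ccl24, Clec10a, Mgl2, and Cd209d were at 0 in members. Of 4 measured fibroblast genes, 0 were higher or lower in both reactions. None of the 30 genes named as highest or lowest changed direction when barcodes of 2500 genes or more, barcodes with other than 1 hashtag, or members under 3 Arg1 UMIs were left out.

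Some genes were also counted together in single members. Il1b was found in 81 of 101 members and in 25 of the 30 with Nos2, and Spp1 in 71 of 101 and in 17 of those 30. Acp5 was found in 22 of 101 and in 8 of the 12 with Ctsk. These counts rise with depth and are given as descriptions only.

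Ctsk (cathepsin K, a collagen-degrading protease) and Acp5 (tartrate-resistant acid phosphatase), both typical of osteoclasts, were set by 3 barcodes. Summed over members, Ctsk stood at 426 and 418 CPM against 39.5 and 31.1 in C1q-high barcodes (3.59 ± 0.23) and Acp5 at 341 and 660 against 47.6 and 51.2 (3.27 ± 0.60). Ctsk was found in 12 members and Acp5 in 22. The 3 members with at least 10 UMIs of both held 86.3% of all Ctsk and 89.2% of all Acp5 UMIs of the members. The isotype member of reaction 1 had 26 Ctsk and 34 Acp5 UMIs, the isotype + ABT-317 member of reaction 1 had 129 and 75, and the isotype + ABT-317 member of reaction 2 had 103 and 197. These 3 had 1 hashtag each, 4288 to 9083 UMIs, and 1632 to 2382 genes, and between them 0 H2-Aa, 0 Thbs1, and 0 Cxcl3 UMIs. Without them the mean log2 ratio was 0.60 for Ctsk and 0.06 for Acp5, and 34 genes were at least 2-fold higher and 51 lower than in C1q-high barcodes. Their weight in the treatment comparisons is given with those results.

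**Figure D3:**
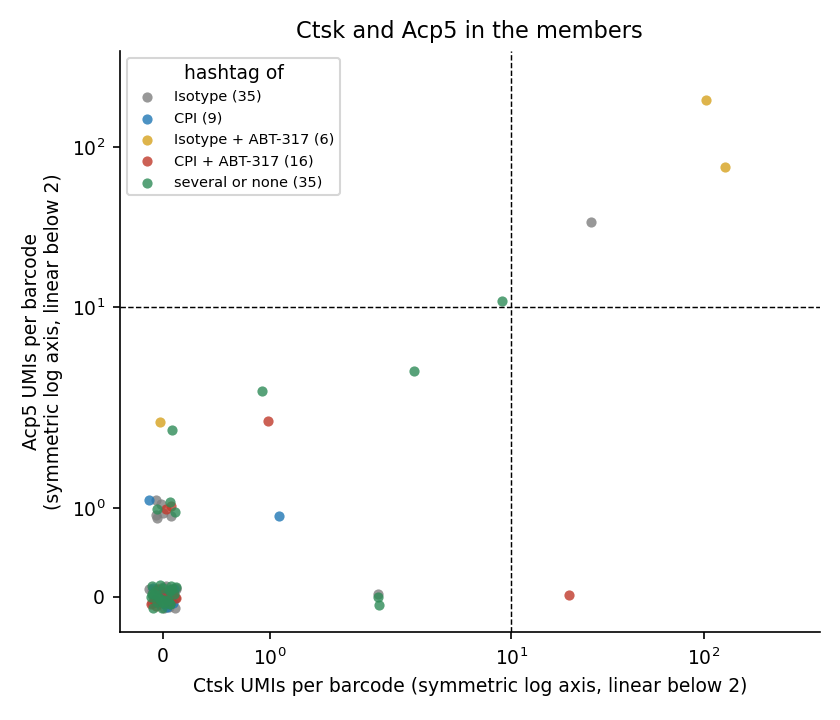
Ctsk against Acp5 UMIs in each of the 101 members, colored by hashtag, on symmetric log axes that are linear below 2, with a small random offset so that points at the same count can be seen. The dashed lines mark 10 UMIs, and 3 members lie above both, 1 with the isotype hashtag and 2 with an isotype + ABT-317 hashtag.

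Surface proteins were an independent readout that the rule did not use. Of 122 antibodies, 9 of them isotype controls, 1 (0.82%) was lower in members than in C1q-high barcodes by over 0.5 on the log2 scale in both reactions and 0 (0%) were higher. That antibody was I-A/I-E, at 63.6 and 60.2 UMIs per 10000 antibody UMIs in members and 108 and 112 in C1q-high barcodes (log2 ratios -0.76 and -0.90). The protein therefore stood in the same order as the H2-Aa, H2-Eb1, and Cd74 transcripts. The next lowest antibodies were CD49f at 177 and 192 against 245 and 245, CD371 (-0.44 and -0.30), and Ly-6A/E (-0.58 and -0.28), followed by CD54, CD48, CD29, and CD317. F4/80, a macrophage protein, stood at 42.0 and 49.1 against 55.1 and 55.2, and CD11b at 170 and 209 against 196 and 210. By the reaction nearest to no difference, the highest was CD274 at 31.1 and 36.2 against 25.97 and 26.1 (0.26 and 0.47, and 0.08 and 0.36 with under 2500 genes). CD9 stood at 179 and 153 against 134 and 138, and CD24 had log2 ratios of 0.10 and 0.46. CD155, CD61, CD86, and CD182 were higher by 0.23 or less in both reactions. Ly-6C stood at 158 and 198 against 159 and 143.

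Against the other comparison classes the members differed more widely. Beside Arg1-low C1q-low barcodes, 308 of 2925 genes (10.5%) were at least 2-fold higher in members and 59 (2.02%) lower, and 51 and 119 with under 2500 genes in both classes. Of the Arg1-low C1q-low barcodes 87.5 and 84.6% had 2500 genes or more, and 70.6 and 54.9% carried several hashtags. The ratios given next are over all barcodes. Most of the upper ones and several of the lower ones were much nearer to no difference with under 2500 genes. The highest genes there were Cxcl3 (5.28 ± 0.38), Slpi (5.03 ± 0.95), Mmp13 (4.59 ± 0.83), Areg (4.48 ± 0.08), Acp5 (4.35 ± 0.14), Mmp12 and F10 (4.21 ± 0.21 and 4.21 ± 0.06), and F13a1 (4.11 ± 0.91). Slc7a2, an arginine transporter, had 4.02 ± 0.78, Clec4d 3.83 ± 0.62, Thbs1 3.77 ± 0.71, Il1a 3.71 ± 0.21, Ctsk 3.53 ± 0.19, Pstpip2 3.44 ± 0.23, and Slc7a8 3.32 ± 0.05. With under 2500 genes in both classes the mean ratios were 3.70 for Cxcl3, 2.58 for Slpi, 2.39 for Areg, 1.66 for Acp5, 1.46 for F10, 1.21 for Mmp12, and 1.25 for Slc7a2 (0.03 in reaction 1). Slc7a2 was higher in 1 of the 8 pools and Areg in 2, while Mmp12 was higher in all 8. Among the lowest, Slc7a5 had 5 and 3 member UMIs and Gcat 8 and 2, so no ratio is given for them. The others were Kpna2 (-1.66 ± 0.58), Timm50 (-1.63 ± 0.46), Hmgb3 (-1.56 ± 0.34), Tm4sf1 (-1.54 ± 0.19), Snhg1, Srm, Il1rl1, Cyb5r1, Ppid, Pold2, Nup37, Lsm7, and Fosl1. With under 2500 genes the means were -0.22 for Timm50 (0.11 in reaction 1) and -0.46 for Il1rl1 (0.37 in reaction 1). Fosl1 (-1.98) and Nup37 (-1.55) were then further from no difference. Beside Arg1-low C1q-low barcodes, 8 of 9 measured mature macrophage genes were higher in members in both reactions and 0 lower. Their median was 1.76, and 0.88 with under 2500 genes. All 7 measured MHC class II genes were higher there too (median 1.34), but with under 2500 genes their median was -1.25. Beside other barcodes, 357 of 2939 genes (12.1%) were higher and 40 (1.36%) lower.

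Arg1 and C1q were not mutually exclusive, so the C1q-high barcodes with at least 5 Arg1 UMIs per 10000 were set beside the members as well. Within C1q-high barcodes, Arg1-positive ones had 83 of 2918 genes (2.84%) at least 2-fold higher than Arg1-low ones and 72 (2.47%) lower. Of the 15 genes highest in members, 14 were also higher in the Arg1-positive C1q-high barcodes in both reactions, 11 of them by at least 2-fold. Of the 15 genes lowest in members, 10 were higher there as well. Beside the Arg1-positive C1q-high barcodes, members had 99 of 2855 genes (3.47%) higher and 106 (3.71%) lower, and all 17 measured mature macrophage genes (median -1.55) and all 7 MHC class II genes (median -1.13) were lower in both reactions. With under 2500 genes those medians were -1.03 and -0.57. The hypoxia list had 9 genes higher and 9 lower of 25 in that comparison (median 0.00). Of 17 measured monocyte genes, 9 were higher and 3 lower (median 0.11 against 0.07 over all genes, and 0.79 with under 2500 genes). The arginine and immunosuppressive enzymes had 3 higher and 5 lower of 12 (median -0.24, and 0.13 with under 2500 genes). The cytokines and chemokines had 1 higher and 15 lower of 20 (median -0.57, and -0.08 with under 2500 genes).

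The next question was how the number of members changed with treatment. Exactly 1 hashtag was present in 32 and 34 members, several in 15 and 18, and none in 2 and 0, and members with 1 hashtag were assigned to its treatment. In reaction 1 there were 20 members of 10585 passing isotype barcodes (0.189%, interval 0.115 to 0.292%), 4 of 2108 CPI barcodes (0.190%, 0.0517 to 0.485%), 3 of 2968 isotype + ABT-317 barcodes (0.101%, 0.0208 to 0.295%), and 5 of 2153 CPI + ABT-317 barcodes (0.232%, 0.0754 to 0.541%). In reaction 2 there were 15 of 9315 (0.161%, 0.0902 to 0.265%), 5 of 1413 (0.354%, 0.115 to 0.824%), 3 of 2175 (0.138%, 0.0285 to 0.403%), and 11 of 2072 (0.531%, 0.265 to 0.948%) in the same order. In each reaction both CPI pools lay above both isotype pools. All counting intervals overlapped within each reaction, although those of isotype and CPI + ABT-317 in reaction 2 only just did.

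The mean share in the 4 CPI pools exceeded that in the 4 isotype pools by 0.179 percentage points (two-sided exact permutation p = 0.0556 within reactions, the smallest p that its 36 arrangements can give). This test therefore cannot reach 0.05. Over myeloid barcodes the difference was 2.66 points with the same exact permutation p. As a share of myeloid barcodes, members made up 0.641 and 0.410% with isotype, 3.74 and 4.72% with CPI, 1.27 and 1.53% with isotype + ABT-317, and 2.22 and 3.81% with CPI + ABT-317. In the same order, C1q-high barcodes made up 88.4 and 93.1%, 69.2 and 73.6%, 91.5 and 93.4%, and 91.6 and 89.3%. Their own Arg1 level was 178 and 178, 317 and 600, 230 and 284, and 560 and 655 CPM. Arg1 thus also differed with CPI outside the members, and its part in the shares was not tested. Median depth over passing barcodes ranged from 2093.5 UMIs in the CPI pool of reaction 1 to 23933 in the isotype + ABT-317 pool of reaction 2. With barcodes thinned to 2000 UMIs before the rule was applied, the CPI difference was 0.0924 points (exact permutation p = 0.278). With under 2500 genes per barcode it was 0.469 points (exact permutation p = 0.444). ABT-317 pools exceeded vehicle pools by 0.0271 points (exact permutation p = 0.778), a difference whose sign turned when either CPI + ABT-317 pool or the isotype pool of reaction 2 was left out. With under 2500 genes per barcode that difference was 0.845 points (exact permutation p = 0.0556, the smallest possible).

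**Figure D4:**
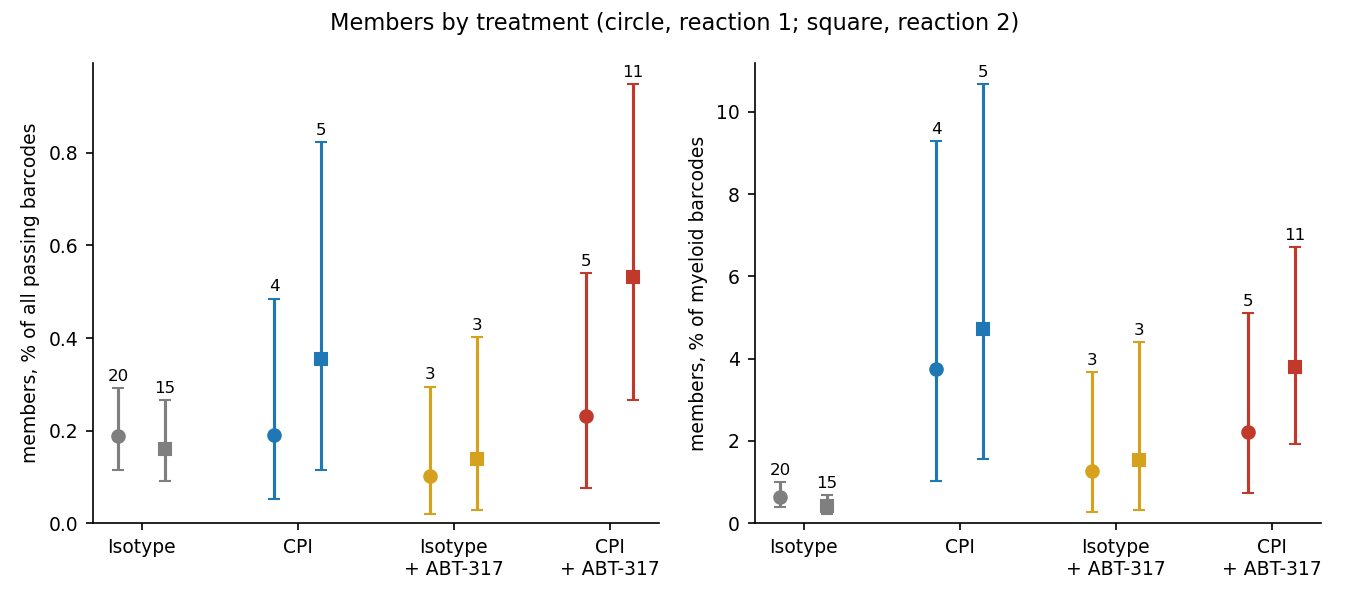
Members as a percent of all passing barcodes (left) and of myeloid barcodes (right) in each treatment, with the number of members above each point and 95% exact Clopper-Pearson intervals for counting error as bars (circles, reaction 1; squares, reaction 2). Over passing barcodes the CPI + ABT-317 pool of reaction 2 is highest at 0.531%, and over myeloid barcodes the CPI pool of reaction 2 is highest at 4.72%.

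Treatment effects on gene expression within members were tested with edgeR on UMIs summed over the members of each pool, with the reaction as a block, over 399 genes. These pools were small, with 3 to 20 members and 8839 to 111310 UMIs, so only large changes could be found. In simulated counts of the same size for CPI + ABT-317 versus CPI, 12 of 78 tested genes changed 4-fold (15.4%) were recovered. Of those changed 16-fold, 114 of 123 tested genes (92.7%) were. Changed genes that missed the count filter are not in these shares. That filter asks for a level in only a few of the pools. A gene could thus enter the test through the group where it was high. Counts of genes that rose or fell and list medians are therefore descriptions of the genes that entered. The simulation gave all genes the same spread and let no single member dominate a pool, so recovery in the real pools may be lower. Because 3 members carried most Ctsk and Acp5 UMIs and 2 of them sat in the isotype + ABT-317 pools of 3 members each, counts of calls are also given without them, over 342 genes, an analysis chosen after the data were seen.

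With CPI and without ABT-317, members carried more MHC class II transcripts than with isotype, and 4 of 14 cytokine and chemokine genes rose. H2-Aa stood at 261 and 234 CPM in the isotype pools of reactions 1 and 2 and at 2715 and 1485 in the CPI pools, a log2 fold change of 3.17 (SE 0.45, edgeR adjusted p = 0.0210). H2-Aa UMIs were found in 7 of 20 and 6 of 15 isotype members and in 4 of 4 and 4 of 5 CPI members. The pool levels of the groups did not overlap, while the counts in single members did. Cxcl3 stood at 35.9 and 40.7 CPM with isotype and 1018 and 2358 with CPI (5.56, SE 0.93, edgeR adjusted p = 0.0210), from 3 of 20, 2 of 15, 2 of 4, and 3 of 5 members.

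In all, 22 of 399 genes (5.51%) were higher and 6 (1.5%) lower with CPI by edgeR, and 116 had an unadjusted p under 0.05. All 5 measured MHC class II genes rose (median log2 fold change 2.84 against 0.03 over all genes), namely H2-Aa, H2-Ab1, H2-Eb1, Cd74, and Ctss. Of 14 cytokines and chemokines 4 rose and 0 fell, with Cxcl3, Ccl6 (5.03, SE 0.64), Ccl5 (3.22, SE 0.77), and the IL-1 receptor antagonist Il1rn as the calls and a list median of 1.26. Ccl6 stood at 1584 and 2358 CPM with CPI and at most 351 in any other pool. Of 10 matrix genes, Cd44 and Thbs1 rose, and Thbs1 stood at 216 and 539 CPM with isotype and 1923 and 3145 with CPI. Of 8 monocyte genes, F10 (3.77, SE 0.78) and S100a11 rose and S100a6 fell (-1.37, SE 0.33). F10 stood at 679 and 699 CPM with CPI and at most 145 in any other pool. Ccl6 and F10 could thus have entered the test through the CPI pools alone. Tnfaip2 (4.21, SE 0.82), the NF-κB pathway genes Malt1 (3.64, SE 0.78) and Nfkb1 (2.93, SE 0.55), and the pattern receptor gene Clec7a rose too. Clec7a had 10 and 0 UMIs with isotype and 7 and 18 with CPI, so no fold is given.

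The genes that fell with CPI were Lgals1 (-1.89, SE 0.31), which encodes galectin 1, Ldha, the translation genes Rplp0 (-1.56, SE 0.37) and Rps2 (-1.29, SE 0.25), S100a6, and Ppia (-1.19, SE 0.28). Ldha had 2 and 7 UMIs in the CPI pools, so no fold is given for it. The sign turned for Lgals1 (0.0845) and S100a6 (1.32) with the stricter Arg1 and C1q limits, for S100a6 (0.19) without members holding other lineage markers, and for Ldha (0.0437) with the leading hashtag. Of 13 measured hypoxia and glycolysis genes, 0 rose and 1, Ldha, fell (median -0.72). Spp1 stood at 1851 and 1240 CPM with isotype and 226 and 524 with CPI, a difference that missed the threshold (edgeR adjusted p = 0.106). Few Spp1 UMIs, in 2 of 4 and 2 of 5 CPI members, set those CPI levels, so no fold is given for Spp1. Il1b missed the threshold as well (1.81, edgeR adjusted p = 0.0879).

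These calls rest on the isotype pools and on few CPI members. They fell to 0 without members that held T cell, fibroblast, or tumor marker UMIs, to 0 with Arg1 at or above 10 and C1q under 10 per 10000, and to 1 with the hashtag that led by 1 natural log unit. The fibroblast genes tested (2) had a median log2 fold change of -2.28 in the same contrast, and their part in the calls was not tested. The count of 28 fell to 0 by edgeR without the isotype pool of either reaction, to 1 without the CPI pool of reaction 1, and to 12 without that of reaction 2. Without the 3 Ctsk- and Acp5-rich members, 41 genes passed, including all 28. The CPI pools were also the shallowest, at a median of 2241.5 and 1845 UMIs per member against 3040.5 and 3578 with isotype, and the part of depth was not tested. C1q-high barcodes of the same pools differed in the same direction for H2-Aa, at 1710 and 1999 CPM with isotype and 4835 and 5260 with CPI, and for Cxcl3, at 15.0 and 13.4 against 303 and 100.

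Under ABT-317, CPI also came with more MHC class II transcripts in members. H2-Aa was at 0 UMIs in both isotype + ABT-317 pools and at 1594 and 2049 CPM with CPI + ABT-317, which is at least 5.65-fold and 10.7-fold higher in reactions 1 and 2 if 3 UMIs per pool are taken as the floor. H2-Aa was found in 3 of 5 and 6 of 11 CPI + ABT-317 members, and 1 member held 75 of the 111 UMIs of reaction 2 and another 18 of the 33 of reaction 1. Without the highest member of each pool, chosen after the data were seen, the levels were 874 and 780 CPM, at least 3.09-fold and 4.09-fold higher. By edgeR, 24 genes (6.02%) were higher and 8 (2.01%) lower with CPI + ABT-317 than with isotype + ABT-317, and 4 of 5 MHC class II genes rose (median 3.83, or 3.62 with H2-Aa at its bound, against 0.10 over all genes). H2-Eb1, at 0 and 1 UMIs in the isotype + ABT-317 pools, kept its fitted value in both medians, so their size is uncertain. Hilpda (at least 4.96-fold and 4.26-fold) and Thbs1 (at least 3.08-fold and 4.07-fold) were also at 0 UMIs in both isotype + ABT-317 pools. Of 14 cytokines and chemokines 4 rose, namely Tnf, Ccl3, Il1a, and Ccl4. Tnf had 0 and 1 UMIs in the isotype + ABT-317 pools and 47 and 51 with CPI + ABT-317, Ccl3 had 0 and 2 against 46 and 73, and Il1a had 0 and 1 against 24 and 30, so these folds rest on counts at or under the floor and are not given. The IFN-responsive transcript AW112010 (1 and 1 UMIs against 35 and 68), the lectin gene Clec4e (1 and 0 against 20 and 21), and the cell cycle inhibitor Cdkn1a (1 and 2 against 39 and 59) rose as well.

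Acp5, Ctsk, and subunits of the vacuolar and mitochondrial proton pumps, Atp6v1g1 (-2.28), Atp5g3 (-2.22), Atp6v0e (-2.04), and Atp6v0c (-1.44), fell with CPI + ABT-317 relative to isotype + ABT-317, as did S100a4 (-2.24) and Cox4i1 (-1.12). Acp5 had 75 and 199 UMIs with isotype + ABT-317 and 4 and 0 with CPI + ABT-317, and Ctsk had 129 and 103 against 1 and 20, so no fold is given for either. S100a4 stood at 2918 and 2543 CPM with isotype + ABT-317 and 290 and 665 with CPI + ABT-317. Without the 3 Ctsk- and Acp5-rich members, 1 of the 32 calls remained by edgeR, H2-Aa. The fit then rests on 2 isotype + ABT-317 members in each reaction. The log2 fold change was then -0.17 for Atp5g3, -0.11 for Atp6v0c, -0.49 for S100a4, and 0.34 for Cox4i1. The isotype + ABT-317 members left held 0 Thbs1, 0 Hilpda, and 0 Tnf UMIs, and none held over 2 of Ccl3 or over 1 of H2-Eb1. These 5 genes thus stayed higher with CPI + ABT-317 although their calls were lost. The reason for the lost calls was not tested. With the leading hashtag 0 of the 32 calls remained, and the sign turned for Atp6v1g1 (0.31) and Atp5g3 (0.23).

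ABT-317 without CPI was also compared with isotype. By edgeR, 8 genes (2.01%) were higher and 3 (0.752%) lower. Ctsk stood at 234 and 20.3 CPM with isotype and 12140 and 6548 with isotype + ABT-317, and Acp5 at 341 and 20.3 against 7059 and 12650. Each gene had 2 UMIs in the isotype pool of reaction 2, so no fold is given. The lysosomal thiol reductase gene Ifi30 (2.55), the vacuolar ATPase genes Atp6v1g1 (2.20), Atp6v0e (2.07), Atp6v0b (1.99), and Atp6v0c (1.76), and Sh3bgrl3 (1.60) rose, and Fn1 (-2.40), S100a6 (-1.54), and Lgals1 (-1.32) fell. Without the 3 members, 0 genes passed by edgeR (47 at an unadjusted p under 0.05), with 2 isotype + ABT-317 members left in each reaction. The edgeR count was also 0 with the leading hashtag, with the stricter Arg1 and C1q limits, and without the isotype pool of reaction 2 (91, 39, and 55 at an unadjusted p under 0.05), and it was 2 without the isotype pool of reaction 1 or the isotype + ABT-317 pool of reaction 2. Without the 3 Ctsk- and Acp5-rich members the log2 fold change was 0.75 for Ifi30, 0.57 for Atp6v0c, 0.02 for Atp6v0b, -0.54 for Lgals1, and -1.40 for Fn1. In that fit S100a6 (-1.38) and Sh3bgrl3 (1.40) moved little. The fibroblast genes tested (2) had median log2 fold changes of -6.62 in this contrast and 4.76 in CPI + ABT-317 versus isotype + ABT-317, and their part in the calls was not tested.

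The comparison closest to the study's question, CPI + ABT-317 versus CPI, gave 0 called genes of 399 by edgeR (38 at an unadjusted p under 0.05) and 1 by DESeq2. H2-Aa stood at 2715 and 1485 CPM with CPI and 1594 and 2049 with CPI + ABT-317 (-0.22, SE 0.42, edgeR adjusted p = 0.914), and its pools overlapped. Cxcl3 stood at 1018 and 2358 against 966 and 203 (-1.86, edgeR adjusted p = 0.512), Spp1 at 226 and 524 against 1353 and 3693 (edgeR adjusted p = 0.255), and F10 at 679 and 699 against 145 and 92.3 (edgeR adjusted p = 0.284). F10 had only 6 and 8 UMIs with CPI and 3 and 5 with CPI + ABT-317, so no fold is given for it. The interaction of CPI and ABT-317, which asks whether the CPI effect differed with ABT-317, also gave 0 genes by edgeR (63 at an unadjusted p under 0.05) and 4 by DESeq2. Without the 3 members both counts were again 0 by edgeR (35 and 40 at an unadjusted p under 0.05). The contrasts share pools, since each pool enters 2 of them, so their values are set side by side and no overlap of their calls is read.

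**Figure D5:**
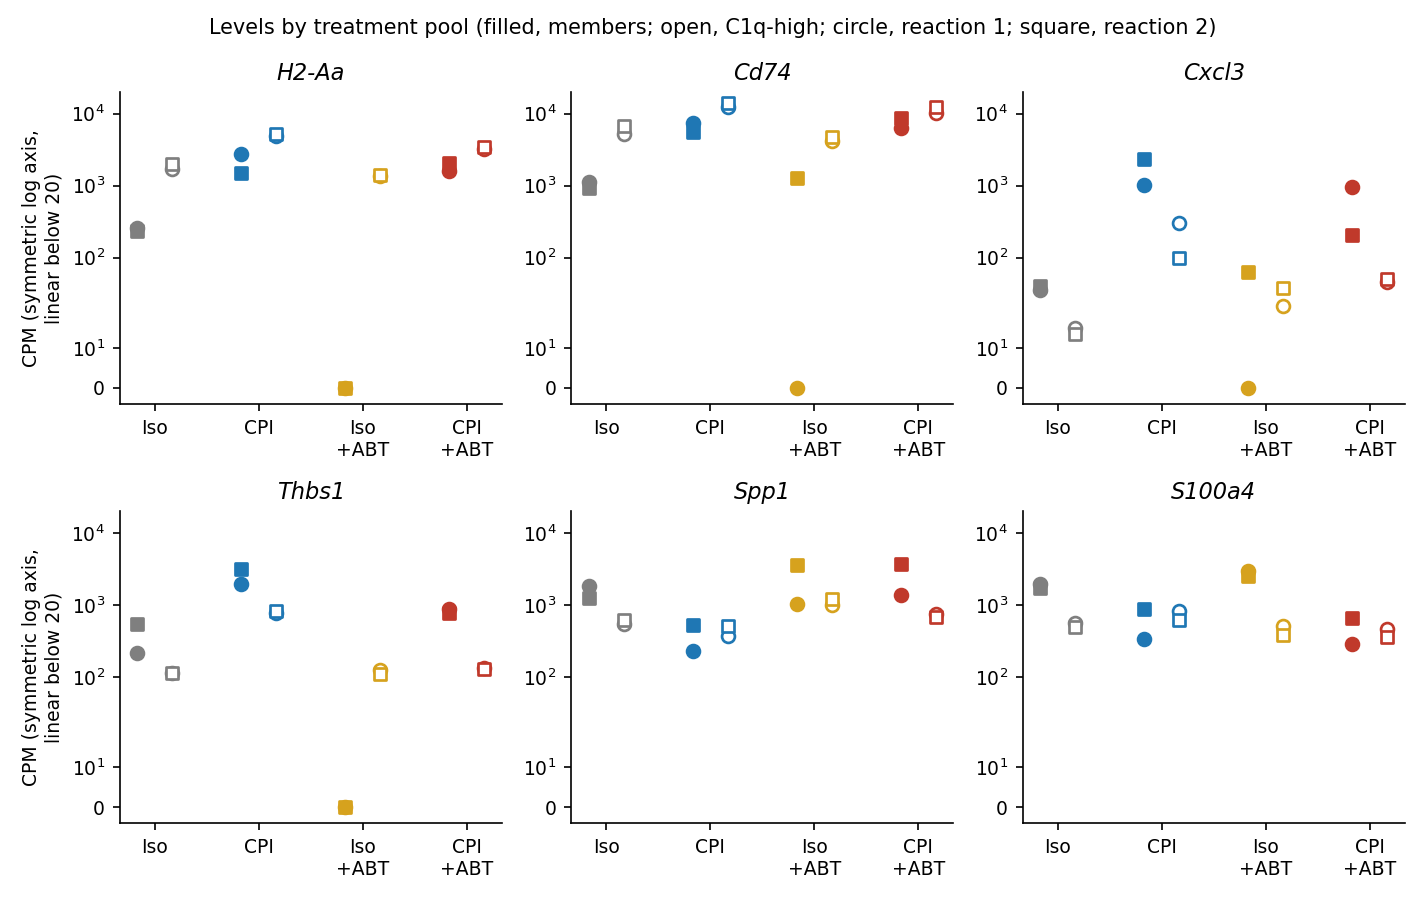
CPM of H2-Aa, Cd74, Cxcl3, Thbs1, Spp1, and S100a4 in members (filled) and C1q-high barcodes (open) of each treatment pool, on symmetric log axes that are linear below 20 (circles, reaction 1; squares, reaction 2). H2-Aa of members lies at 234 to 261 CPM with isotype, 0 with isotype + ABT-317, and 1485 to 2715 CPM in the 4 pools with CPI.

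Surface I-A/I-E protein of members did not follow the transcripts in every group. It stood at 65.8 and 66.3 per 10000 antibody UMIs with isotype, 122 and 80.2 with CPI, 26.2 and 22.0 with isotype + ABT-317, and 37.5 and 37.2 with CPI + ABT-317. Both pools of each ABT-317 group lay below both pools of the matching group without it. With CPI + ABT-317 it was lower than with CPI by 1.14 on the log2 scale (SE 0.17, edgeR adjusted p = 0.0265), while H2-Aa mRNA of the same members was not called. This I-A/I-E call passed in 4 of 8 fits that left out a pool, and 0 antibodies passed without either CPI pool. A single member held 65571 of the 102027 antibody UMIs of the CPI + ABT-317 pool of reaction 1, and without it the difference of I-A/I-E was -0.92 and no longer passed. The call was also lost without the reaction block. With isotype + ABT-317 it was lower than with isotype (-1.46, SE 0.21, edgeR adjusted p = 0.0312), a call that passed in 3 of 8 such fits. It was lost without the reaction block, with the leading hashtag, without the member with most antibody UMIs (at a log2 fold change of -1.47), and without the 3 Ctsk- and Acp5-rich members (-1.26). In C1q-high barcodes I-A/I-E stood at 98.0 and 109 with isotype, 254 and 252 with CPI, 72.9 and 82.0 with isotype + ABT-317, and 96.3 and 103 with CPI + ABT-317. In other barcodes, I-A/I-E stood at 45.6 and 49.3, 57.2 and 65.0, 20.9 and 18.2, and 23.6 and 24.5 in the same order. A lower reading with ABT-317 was thus also present in barcodes that failed the myeloid rule. These can still include myeloid cells, and 37.8 and 31.1% of them held an H2-Aa UMI. Which cells gave that reading was not tested.

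By edgeR, 4 of 122 antibodies (3.28%) were higher and 1 (0.82%) lower in members with CPI than with isotype. CD38, an NAD-consuming ectoenzyme, stood at 12.2 and 13.8 per 10000 with isotype and 64.4 and 31.1 with CPI (1.83, SE 0.29, edgeR adjusted p = 0.025). CD38 in C1q-high barcodes was at 14.6 and 14.5 with isotype and 124 and 54.7 with CPI. The tetraspanin CD9 stood at 143 and 130 with isotype and 264 and 244 with CPI (0.91, SE 0.11, edgeR adjusted p = 0.0168). CD11a (0.61, SE 0.11) and CD11c (0.60, SE 0.08) rose, and CD49f fell (-0.54, SE 0.08). The CD11a call passed in 0 of 5 other settings (no block, leading hashtag, no TMM, and without the member or the 3 members named here). In the last 2 of these its log2 fold change stayed at 0.61 and 0.59. The 5 calls passed in 2 to 4 of 8 fits that left out a pool, and 0 antibodies passed without either isotype pool or without the CPI pool of reaction 1. Without the 3 Ctsk- and Acp5-rich members, 4 antibodies passed. With CPI + ABT-317 relative to CPI, 3 antibodies (2.46%) were lower by edgeR and 0 higher, namely I-A/I-E, CD9 (-0.99, SE 0.11), and CD11c (-0.59, SE 0.08). Without the 3 members, 3 antibodies passed here.

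Surface CD9 was also compared under ABT-317. It stood at 287 and 212 with isotype + ABT-317, above isotype (0.86, SE 0.11, edgeR adjusted p = 0.0312), and at 91.9 and 125 with CPI + ABT-317, below isotype + ABT-317 (-0.94, SE 0.11, edgeR adjusted p = 0.0216). The difference from isotype passed in 3 of the 8 fits that left out a pool and in 1 of 5 other settings. Without the 3 Ctsk- and Acp5-rich members the log2 fold changes of CD9 were 0.02 and -0.07. In other barcodes CD9 stood at 137 and 155 with isotype, 138 and 146 with CPI, 178 and 192 with isotype + ABT-317, and 167 and 180 with CPI + ABT-317. By edgeR and without those 3 Ctsk- and Acp5-rich members, 0 antibodies passed in isotype + ABT-317 versus isotype and 0 in CPI + ABT-317 versus isotype + ABT-317 (8 and 11 at an unadjusted p under 0.05). An interaction was not tested for antibodies.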

How the data were processed

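Gene and surface antibody UMIs of 2 droplet reactions from MC38 tumors were analysed, and 3 TDLN reactions were searched for members. The authors deposited raw UMI counts per feature and barcode, written by Cell Ranger without normalization, and a key that pairs hashtags with treatments. File headers name Cell Ranger 8.0.1 for tumors and 7.1.0 for TDLNs, while the submitters' processing notes name 3.1.0 with GRCm38 (mm10); the build behind the 33696 tumor genes was not settled, so no coordinates are given. Total gene counts were 435031691 and 377184807. Members and gene lists were chosen with earlier results of these data known.

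Levels are UMI counts scaled to the same total (CPM) or UMIs per 10000, from sums over barcodes. A hashtag was called present at a posterior of 0.5 in a 2-component fit on the log scale, and barcodes with exactly 1 were assigned. T cell barcodes had at least 3 UMIs of T cell markers and fewer than 3 Tyrobp UMIs, which leaves out those with more myeloid background. Barcodes with several hashtags stayed in the description and left the treatment tests. Members of a treatment and reaction were summed into 8 pools. The plan required 10 members per pool, which 3 of 8 pools reached, so at least 3 were required, a change made after the data were seen. Sums were tested with edgeR 4.0.16 in R 4.3.3 (TMM, filterByExpr, quasi-likelihood test, Benjamini-Hochberg, threshold 0.05, two-sided) with all 4 treatments and the reaction in 1 fit, after tests on simulated data, and DESeq2 1.42.0 was an alternative. The reaction is a block because the design text says that hashtags were balanced over reactions to correct for it. Deviations of pools with the same reaction number correlated at -0.094 to 0.228 over 399 genes and 6 pairs. Shares were compared by exact permutation within reactions. Python 3.11.15 with scipy 1.17.1 and scikit-learn 1.9.0 served for the remaining steps, and matplotlib 3.10.9 for plots.

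Named genes were the 15 highest and 15 lowest by the reaction nearest to 0 among genes with at least 50 CPM, and the 10 largest called changes per direction in each treatment contrast, without genes of the gate and mitochondrial genes. Named antibodies were the 8 highest and 8 lowest and all that passed. Genes of the lists were named freely. Of the antibody features, 122 remained after the hashtags, and no column of values was left out (0). Alternatives covered the gate limits, thinning to 2000 UMIs, the 2500-gene limit, hashtag calls, filters, normalization, and leaving out each pool.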

Additional observations from a re-analysis of the deposited data

Results flagged for a closer look

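In the reported setting the share of members with ABT-317 lay on one side with CPI and on the other without it, and the direction turned with the denominator. Over passing barcodes, members were higher with CPI + ABT-317 than with CPI by 0.0425 and 0.177 percentage points in reactions 1 and 2, whereas with isotype + ABT-317 minus isotype the difference was -0.0879 and -0.0231 points. Over myeloid barcodes the difference was -1.52 and -0.911 points with CPI and 0.630 and 1.12 points without it. In both cases the 2 reactions of one arm moved opposite to the 2 reactions of the other. The difference between the arms was not tested. Over passing barcodes thinned to 2000 UMIs the same pattern was seen, on few members (CPI 0 and 0.347% against 0.049 and 0.354%, isotype 0.179 and 0.107% against 0 and 0.0947%). It did not hold in the settings given next. With the hashtag that led by 1 natural log unit, ABT-317 pools were lower in both arms (CPI 0.571 and 0.480% against 0.234 and 0.388%, isotype 0.168 and 0.193% against 0.0900 and 0.109%). Under 2500 genes they were higher in both arms (CPI 0.202 and 0.398% against 0.988 and 2.17%, isotype 0.276 and 0.259% against 0.432 and 0.920%). With at least 3 Arg1 UMIs, over myeloid barcodes, the CPI reactions split (1.87 to 2.22% and 3.77 to 3.11%). Each CPI pool held 107 or 106 myeloid barcodes, and each isotype pool 3118 or 3660.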

How the results depend on the processing

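The number of members followed the limits of the rule. Reaction 1 gave 114 members with Arg1 at or above 2 per 10000, 24 with Arg1 at or above 10, 27 with C1q under 10, 120 with C1q under 40, and 30 after thinning to 2000 UMIs, and reaction 2 gave 92, 32, 84 (C1q under 40), and 29 (thinned). The share difference for ABT-317 changed sign over myeloid barcodes (-0.169 points), after thinning (-0.0337), and with the hashtag that led by 1 natural log unit (-0.148), and ranged from -0.0711 to 0.125 when each pool was left out, being negative without CPI + ABT-317 of reaction 1 (-0.0057) or 2 (-0.0711) or isotype of reaction 2 (-0.0211). The CPI difference ranged from 0.135 to 0.224 points over those pools. Under 2500 genes, CPI differed by 0.469 points (exact permutation p = 0.444) and ABT-317 by 0.845 points (exact permutation p = 0.0556).

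Called genes depended strongly on the setting. For CPI versus isotype, 28 called genes became 1 with the leading hashtag, 92 without a filter on low counts, 14 under 2500 genes, 0 with Arg1 at or above 10 and C1q under 10, and 0 without members that held T cell, fibroblast, or tumor marker UMIs (116 at an unadjusted p under 0.05 in the reported fit). For CPI + ABT-317 versus CPI, 0 became 1 by DESeq2 and 6 without the filter. For isotype + ABT-317 versus isotype, 11 became 5 without the replicate block, 0 with the leading hashtag, 47 without the filter, 0 with the stricter Arg1 and C1q limits, and 0 without the 3 members rich in Ctsk and Acp5. For CPI + ABT-317 versus isotype + ABT-317, 32 became 0 with the leading hashtag, 55 without the filter, 58 under 2500 genes, 0 with the stricter limits, and 1 without the 3 members. The interaction went from 0 to 4 by DESeq2 and 95 without the filter. Leaving out each pool gave 0 to 73, 0 to 6, 0 to 46, 18 to 70, and 0 to 18 genes in that order. The lowest counts of the isotype + ABT-317 contrast were 0 without isotype of reaction 2 and 2 without isotype of reaction 1 or isotype + ABT-317 of reaction 2.

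Called antibodies for CPI versus isotype (5) became 3 with the leading hashtag and 2 without TMM, and for CPI + ABT-317 versus CPI (3) 7 without TMM and 2 without the member with most antibody UMIs. For isotype + ABT-317 versus isotype (2) they became 0 without the replicate block, 0 with the leading hashtag, 1 without TMM, 1 without the member with most antibody UMIs, and 0 without the 3 members. For CPI + ABT-317 versus isotype + ABT-317 (1) they became 3, 0, 5, 5, and 0 in that order. Leaving out each pool gave 0 to 15, 0 to 9, 0 to 2, and 0 to 12. The fit without the block moved no other count by over 1.5 times.

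Named genes that changed sign for CPI versus isotype were Lgals1 (0.0845) and S100a6 (1.32) with the stricter limits, S100a6 (0.19) without lineage markers, and Ldha (0.0437) with the leading hashtag. S100a6 also did for isotype + ABT-317 versus isotype (0.50, stricter limits). For CPI + ABT-317 versus isotype + ABT-317, Atp6v1g1 (0.31) and Atp5g3 (0.23) did with the leading hashtag and Cox4i1 (0.34) without the 3 members. As a median of the 4 pools, Areg (-6.51), Pstpip2 (-1.17), and Mmp13 (-2.62) turned over C1q-high, and Areg (-3.43), Mmp13 (-0.29), and Slc7a2 (-3.36) over Arg1-low C1q-low barcodes.

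Genes at least 2-fold higher and lower than in C1q-high barcodes (30 and 50) became 61 and 83 under 2500 genes, 102 and 200 without lineage markers, and 53 and 90 thinned, with 56 higher for the mean per barcode, 79 lower with exactly 1 hashtag, and 182 lower for the median of pools. Over Arg1-low C1q-low barcodes (308 and 59) they became 51 and 119 under 2500 genes, with 335 lower for the mean per barcode, 575 without lineage markers, 260 with exactly 1 hashtag, 468 for the median of pools, and 299 thinned. A single reaction gave 49 to 92 higher and 98 to 161 lower over C1q-high, and 321 to 462 and 93 to 406 over Arg1-low C1q-low barcodes. The treatment fits without a whole reaction could not be fitted, and the planned minimum of 10 members per pool could not be met. The causes of these changes were not tested. Pools of 3 to 20 members limit what can be called, and a difference that was not called is not shown to be absent. The settings without the 3 members, without the member with most antibody UMIs, the level comparisons under 2500 genes, as a mean per barcode, and with at least 3 Arg1 UMIs were chosen after seeing the data. Fits with the leading hashtag or under 2500 genes took pools of at least 2 members, and those with the stricter limits or without lineage markers pools of at least 1, so the CPI pool of reaction 1 (0 members) dropped out under the stricter limits.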

Other observations

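One member of the CPI + ABT-317 pool of reaction 1 carried 65571 antibody UMIs, more than any other member, and Siglec-H, which marks plasmacytoid dendritic cells, summed to 714 per 10000 antibody UMIs over the members of that reaction (33878 UMIs) against 40.8 in C1q-high barcodes. The median over single members was 41.6 per 10000, and in reaction 2 the sum was 41.9 against 40.7. Siglech mRNA was at 0 in the members of both reactions. The Arg1-positive C1q-high barcodes, which the rule leaves out, held 19 of 20 measured cytokine and chemokine genes at a higher level than Arg1-low C1q-high barcodes in both reactions, 9 of them at least 2-fold, with a median log2 ratio of 0.89 against -0.09 over all genes (0.34 with under 2500 genes per barcode). All 11 measured cell cycle genes were lower there (median -0.71, and -0.91 with under 2500 genes). All 10 measured JAK-STAT genes were higher (median 0.33), but with under 2500 genes their median was 0.04.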
